A study of Mus musculus with 6 samples.

Results

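The genes described here are 10 genes of the switch between epithelial and mesenchymal cell adhesion, chosen by gene name from a list of epithelial adhesion genes of stem cells and of regulators of the mesenchymal state, out of 55385 genes counted. They are 4 epithelial genes, *Cdh1*, *Epcam*, *Cldn6* and *Cldn7*, and 6 mesenchymal genes, *Cdh2*, *Snai1*, *Snai2*, *Twist1*, *Zeb1* and *Zeb2*. RNA was sequenced from mouse embryonic stem cells (mESCs) of 3 genotypes, with 2 libraries each. These are wild-type mESCs, mESCs with a deletion of the *Wnt6* loop anchor on a single allele (heterozygous), and mESCs with that deletion on both alleles (homozygous). A loop anchor is a site at which a Polycomb-marked stretch of chromosome contacts a distant one, and the study asked how removing it alters gene expression. All libraries came from cells kept with leukemia inhibitory factor on CD1 feeder cells, so that RNA of the feeder fibroblasts can be present in every library. The deletions were made with CRISPR-Cas9 in wild-type mESCs of the G4 line, a hybrid of the 129/Sv and C57BL/6 strains, from which single clones were picked, and the labels do not say how many clones stand behind each genotype. A difference between genotypes therefore cannot be told apart from a difference between clones. With 2 libraries per genotype and no label of separate cultures, p-values measure only the spread between these libraries.

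Epithelial cells adhere through E-cadherin, encoded by *Cdh1*, a calcium-dependent adhesion protein of adherens junctions whose intracellular tail binds catenins. EpCAM is another surface adhesion protein of epithelia and of pluripotent cells, and the claudins *Cldn6* and *Cldn7* encode membrane proteins of tight junctions. During an epithelial-to-mesenchymal transition, the transcription factors encoded by *Snai1*, *Snai2*, *Zeb1*, *Zeb2* and *Twist1* repress epithelial genes, and cells gain N-cadherin, encoded by *Cdh2*. Mouse embryonic stem cells grow as compact colonies held together by E-cadherin, whereas fibroblasts express the mesenchymal side of the program.

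The SNAI and ZEB proteins are zinc finger factors that bind the E-box letters CACCTG, which read CAGGTG on the other strand. RefSeq promoters on GRCm38.p6, from 250 bases before to 50 bases after the start of transcription, were at hand for 6 of the 10 genes, *Epcam*, *Cldn6*, *Cldn7*, *Snai1*, *Twist1* and *Zeb2*. CACCTG or CAGGTG stood in 20.2% of all 32851 promoters of this length, and in at least 1 promoter of 22.6% of their 27025 genes. Of the 6 genes, *Epcam*, *Cldn6*, *Cldn7* and *Snai1* had a match in at least 1 promoter, but the listed promoters of *Twist1* and *Zeb2* had none. The stretches around the matches upstream of the start are shown because these are letters that factors of the mesenchymal group read, with the E-box in capitals, 5′ to 3′ on the plus strand, which is the strand of all 4 genes. Positions give the first base of the E-box relative to the RefSeq start. The stretches of *Cldn6* and *Cldn7* lie within these genes as annotated in GENCODE M21, which begin at bases 23679249 and 69964779.
*Epcam*, position -187, chr17:87635780-87635809: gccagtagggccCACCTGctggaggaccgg
*Epcam*, position -19, chr17:87635948-87635977: acccataaaaccCAGGTGtggaggagaagc
*Cldn6*, position -93, chr17:23679260-23679289: gggaaacgcacgCAGGTGgctatcgccgca
*Cldn7*, position -97 of the second of its 2 listed starts, chr11:69965312-69965341: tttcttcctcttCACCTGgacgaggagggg
*Cldn7*, position -57 of the same start, chr11:69965352-69965381: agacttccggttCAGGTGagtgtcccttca
*Snai1*, position -126, chr2:167538057-167538086: gcagcccaggcgCACCTGctccggtctcag
A further match of *Cldn6* lies after the start, at position 41. A match of letters describes the sequence, and binding was not measured here.

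The libraries held between 23813912 and 28964706 counts. Levels are given as CPM, counts scaled to a fixed library total after TMM factors had adjusted each total for its composition, and differences are log2 fold changes with their standard errors (SE) from a single edgeR quasi-likelihood fit of the 6 libraries. A gene was called at a Benjamini-Hochberg adjusted p below 0.05 over the 16951 genes tested, and calls that also had an absolute log2 fold change above 1 are given separately. All 10 genes passed the filter on low counts, 10 or more in any 2 libraries, and none had fewer than 22 counts in any library. The targeted gene, *Wnt6*, had 11 and 13 counts in the wild-type, 6 and 4 in the heterozygous, and 0 and 0 in the homozygous libraries, in the order of its dose. The 12 listed stem cell markers were all detected, with *Pou5f1*, a core pluripotency factor, between 876 and 1064 CPM in the 6 libraries.

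In wild-type cells the epithelial genes lay far above the mesenchymal genes. Per kilobase of exon in the GENCODE M21 annotation, *Cdh1* was at 192 ± 1.21 CPM per kb (SD, n = 2), *Epcam* at 123 ± 3.11, *Cldn6* at 86.7 ± 4.24 and *Cldn7* at 25.2 ± 0.690. *Cdh1* thus ranked above 99.3% of the 28552 genes counted at least once in the wild-type libraries. The mesenchymal genes ran from *Cdh2* at 3.67 ± 0.0420 CPM per kb over *Snai1* at 2.64 ± 0.421, *Twist1* at 2.39 ± 0.0162, *Zeb1* at 1.11 ± 0.00495 and *Snai2* at 1.11 ± 0.0206 to *Zeb2* at 0.462 ± 0.0573. In this order *Snai1* and *Twist1* overlapped between libraries, as did *Zeb1* and *Snai2*, and every other gene lay above the next in both libraries. The length of *Zeb2* is the summed length of all its annotated exons, 19942 bases, so its level per kb is low by construction where long exons are not used. The order of the 5 highest genes was the same in all 3 genotypes. In homozygous libraries *Twist1* (1.93 and 1.67 CPM per kb) lay above *Snai1* (1.37 and 1.30), the reverse of the means in wild-type and heterozygous cells.

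**Figure D1:**
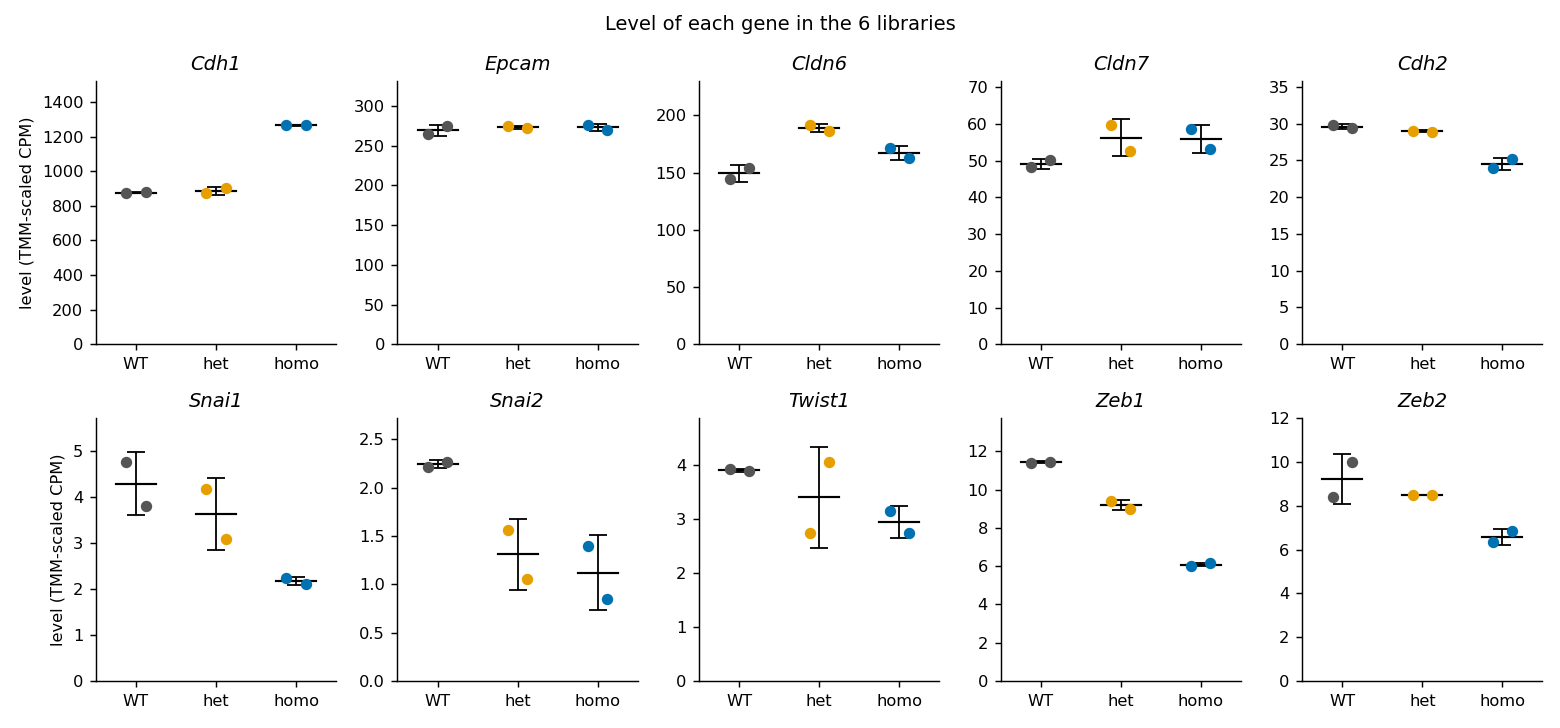
Level in TMM-scaled CPM (vertical axes from 0) of each of the 10 genes in the 2 wild-type (WT), 2 heterozygous (het) and 2 homozygous (homo) libraries. Points are libraries, horizontal lines are means and bars are SD (n = 2). *Cdh1* stands at 1268 and 1264 CPM in homozygous libraries, above the other 4, while *Zeb1* steps down from 11.4 over 9.20 to 6.08 CPM.

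*Cdh1*, which lies on chromosome 8 (ENSMUSG00000000303, 106603351 to 106670246 of GRCm38, plus strand), rose in the homozygous deletion. Its level was 873 and 881 CPM in the wild-type, 871 and 904 in the heterozygous, and 1268 and 1264 in the homozygous libraries. Both homozygous libraries lay above the other 4, and the heterozygous libraries overlapped the wild-type ones. The change was 1.44-fold, a log2 fold change of 0.53 (SE 0.0384, edgeR adjusted p = 4.33e-09), against wild-type, and 0.51 (SE 0.0384, edgeR adjusted p = 5.06e-09) against the heterozygous deletion. The heterozygous log2 fold change was 0.02, with a 95% interval from -0.06 to 0.10 (edgeR adjusted p = 0.882).

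Other genes of chromosome 8 were higher in the homozygous deletion too. The 890 tested genes of this chromosome had a median log2 fold change of 0.39 against wild-type, with quartiles of 0.23 and 0.52, where all tested genes had a median of -0.01. *Cdh1* lay 0.14 above the chromosome's median and above 77.5% of its genes. Against the heterozygous deletion *Cdh1* (0.51) lay at the chromosome's median of 0.51. In the heterozygous deletion against wild-type the median of chromosome 8 was -0.12, and *Cdh1*, at 0.02, lay 0.14 above it, as it did in the homozygous deletion. The part of the chromosome's offset in the rise of *Cdh1* was not tested, since DNA copy number was not analysed here. The medians of the chromosomes of the other 9 genes lay between -0.05 and 0.02 in both deletions against wild-type.

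**Figure D2:**
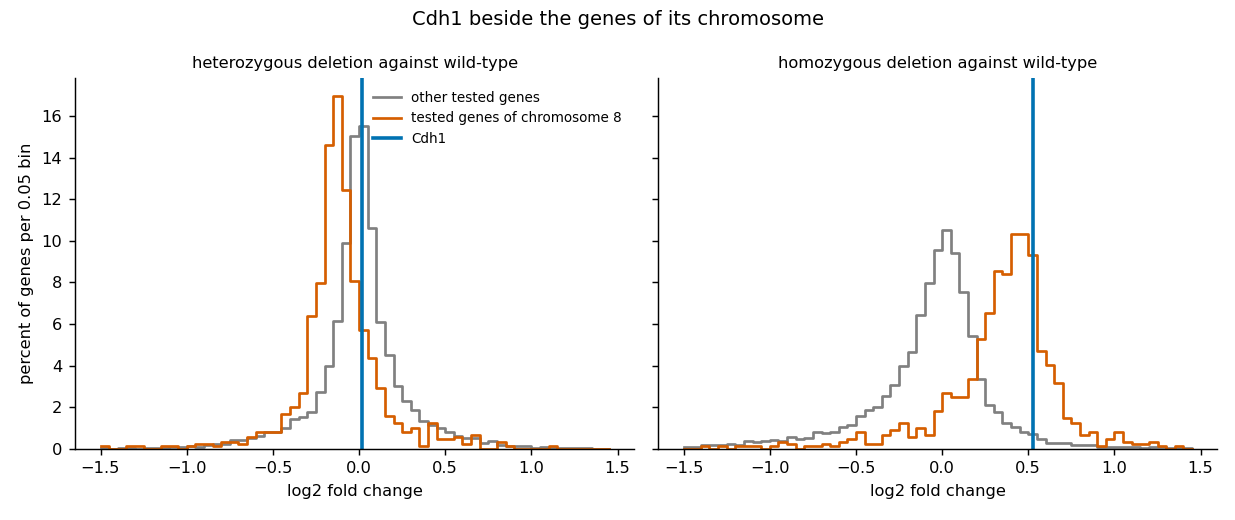
Share of genes (percent per bin of 0.05, vertical axis) by log2 fold change (horizontal axis) for the 890 tested genes of chromosome 8 (orange) and all other tested genes (grey), in each deletion against wild-type; values beyond 1.5 in either direction are not drawn. The vertical line is *Cdh1*, at 0.02 (left) and 0.53 (right), and it stands to the right of the peak of chromosome 8 in both panels.

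The other epithelial genes had smaller changes than *Cdh1* in the homozygous deletion, or none that could be detected. *Epcam* (ENSMUSG00000045394, chromosome 17, 87635979 to 87651129) was at 265 and 274 CPM in the wild-type, 275 and 272 in the heterozygous, and 276 and 270 in the homozygous libraries, so all 3 genotypes overlapped. Its log2 fold change was 0.02 in both deletions, with 95% intervals from -0.06 to 0.11 for the heterozygous and from -0.07 to 0.11 for the homozygous cells (edgeR adjusted p = 0.867 and 0.789).

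*Cldn6* (ENSMUSG00000023906, chromosome 17, 23679249 to 23682446) had its highest level in the heterozygous deletion. It was at 144 and 154 CPM in the wild-type, 192 and 187 in the heterozygous, and 171 and 163 in the homozygous libraries, with no overlap between any genotypes. It rose by 0.34 on the log2 scale with 1 deleted allele (SE 0.0466, edgeR adjusted p = 8.50e-05) and by 0.16 with both deleted (SE 0.0469, edgeR adjusted p = 0.0174). Tested directly, the homozygous level was below the heterozygous one, with a log2 fold change of -0.18 (SE 0.0466, edgeR adjusted p = 0.0071), a call lost without heterozygous replicate 1 (edgeR adjusted p = 0.0657). The homozygous call was lost with library totals in place of TMM (0.10, edgeR adjusted p = 0.0953), without wild-type replicate 1 (0.11, edgeR adjusted p = 0.268) and without homozygous replicate 1 (0.13, edgeR adjusted p = 0.105). The heterozygous libraries were also those in which fewer reads fell on stem cell markers, as described further on.

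*Cldn7* (ENSMUSG00000018569, chromosome 11, 69964779 to 69967885) lay above wild-type in both deletions by a similar amount. Its level was 48.2 and 50.1 CPM in the wild-type, 59.8 and 52.6 in the heterozygous, and 58.7 and 53.3 in the homozygous libraries. All deletion libraries exceeded both wild-type libraries, and the deletions overlapped each other. The log2 fold change was 0.19 in each (SE 0.0647 and 0.0650), with an edgeR adjusted p of 0.104 for the heterozygous and 0.0472 for the homozygous cells. The homozygous call rested on few libraries, since it was lost without either wild-type replicate and without homozygous replicate 1 (highest edgeR adjusted p = 0.284). DESeq2 gave it an adjusted p of 0.121, and with library totals the change was 0.13 (edgeR adjusted p = 0.168). The heterozygous value passed with only the libraries compared (edgeR adjusted p = 0.032), without either homozygous replicate (edgeR adjusted p = 0.0312 for both) and without heterozygous replicate 2 (0.28, edgeR adjusted p = 0.0468). Between the deletions the 95% interval of the log2 fold change ran from -0.14 to 0.13.

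*Cdh2* (ENSMUSG00000024304, chromosome 18, 16588877 to 16809246, minus strand), the mesenchymal cadherin, fell in the homozygous deletion. It was at 29.8 and 29.3 CPM in the wild-type, 29.0 and 28.9 in the heterozygous, and 24.0 and 25.2 in the homozygous libraries. The homozygous libraries lay below the other 4. The log2 fold change was -0.27 (SE 0.0661, edgeR adjusted p = 0.00603) against wild-type and -0.24 (SE 0.0667, edgeR adjusted p = 0.0133) against the heterozygous deletion. Without wild-type replicate 1 the first had an edgeR adjusted p of 0.0624, and DESeq2 gave the second an adjusted p of 0.0921. The second call was also lost without either heterozygous replicate (edgeR adjusted p = 0.0599 and 0.0522) and without homozygous replicate 1 (edgeR adjusted p = 0.0825). The heterozygous cells had a log2 fold change of -0.03 (95% interval from -0.17 to 0.10).

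Set against each other within a library, the 2 cadherins moved apart in the homozygous deletion. Per kb of exon, the *Cdh1* level was 51.6 and 52.9 times that of *Cdh2* in wild-type, 52.9 and 55.2 times in heterozygous, and 93.1 and 88.7 times in homozygous libraries. The *Epcam* to *Cdh2* ratio, which does not involve chromosome 8, was 32.6 and 34.3 in the wild-type, 34.8 and 34.6 in the heterozygous, and 42.3 and 39.5 in the homozygous libraries. The wider ratio of the cadherins thus combined a higher *Cdh1* with a lower *Cdh2*.

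Of the 5 transcription factors, *Zeb1* had the clearest fall. *Zeb1* (ENSMUSG00000024238, chromosome 18, 5591860 to 5775467), a zinc finger repressor of *Cdh1*, was at 11.4 and 11.5 CPM in the wild-type, 9.40 and 9.01 in the heterozygous, and 6.02 and 6.14 in the homozygous libraries. The 3 genotypes did not overlap, and the level stepped down with the number of deleted alleles. The log2 fold change was -0.91 in the homozygous deletion (SE 0.104, edgeR adjusted p = 1.84e-06) and -0.60 between the deletions (SE 0.109, edgeR adjusted p = 0.000387). With 1 deleted allele it was -0.31 (SE 0.0957), which did not pass the threshold (edgeR adjusted p = 0.0685). With only the wild-type and heterozygous libraries in the fit, the same value had an edgeR adjusted p of 0.0391.

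*Zeb2* (ENSMUSG00000026872, chromosome 2, 44983632 to 45117395, minus strand), its paralog, fell less. It was at 8.40 and 10.02 CPM in the wild-type, 8.47 and 8.48 in the heterozygous, and 6.33 and 6.83 in the homozygous libraries. The heterozygous libraries lay between the 2 wild-type values. The homozygous libraries lay below all others, with a log2 fold change of -0.48 against wild-type (SE 0.117, edgeR adjusted p = 0.00562). This call was lost without wild-type replicate 2 (-0.34, edgeR adjusted p = 0.119). Against the heterozygous deletion the log2 fold change was -0.36 (SE 0.119, edgeR adjusted p = 0.0309), which DESeq2 did not call (adjusted p = 0.158). It was also lost without either heterozygous replicate (edgeR adjusted p = 0.102 and 0.106) and without homozygous replicate 1 (edgeR adjusted p = 0.124). The *Zeb1* level per kb was 2.63 and 2.22 times that of *Zeb2* in wild-type and 1.85 and 1.75 times in homozygous libraries. *Zeb2* shares 653 exonic bases with its antisense transcript *Zeb2os*, and *Zeb1* shares 198 with *Gm10125* on the other strand. Both partners had at most 3 counts in any library.

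*Snai1* (ENSMUSG00000042821, chromosome 2, 167538195 to 167542814), which encodes Snail, was lower by about as much as *Zeb1* in the homozygous deletion, but from fewer counts. Its counts were 140 and 97 in the wild-type, 104 and 82 in the heterozygous, and 51 and 55 in the homozygous libraries, or 4.76 and 3.796, 4.18 and 3.08, and 2.23 and 2.11 CPM. The heterozygous libraries overlapped the wild-type ones, and the homozygous libraries lay below the other 4. The fitted log2 fold change was -0.99 (SE 0.192, edgeR adjusted p = 0.000782) against wild-type and -0.74 (SE 0.201, edgeR adjusted p = 0.0102) against the heterozygous deletion. Without heterozygous replicate 1 the second was -0.51 (edgeR adjusted p = 0.161), and DESeq2 gave it an adjusted p of 0.0523.

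*Snai2* (ENSMUSG00000022676, chromosome 16, 14705852 to 14709385), which encodes Slug, had the lowest counts of the 10 genes. Its counts were 65 and 58 in the wild-type, 39 and 28 in the heterozygous, and 32 and 22 in the homozygous libraries, or 2.21 and 2.27, 1.57 and 1.05, and 1.396 and 0.845 CPM. Both deletions lay below wild-type in every library and overlapped each other. The log2 fold change was -1.02 in the homozygous deletion (SE 0.266, edgeR adjusted p = 0.00915), the only value among the 10 genes past both thresholds in any comparison, where 0.271% of all tested genes were past both as higher and 1.86% as lower. For the heterozygous cells these shares were 0.0413% and 0.124%, and between the deletions 0.496% and 0.897%. The call was lost with DESeq2 (adjusted p = 0.0751), without either wild-type replicate (edgeR adjusted p = 0.0512 and 0.0559) and without homozygous replicate 2 (-0.68, edgeR adjusted p = 0.0977). For the heterozygous cells it was -0.78 (SE 0.254, edgeR adjusted p = 0.0903), and this value had an edgeR adjusted p of 0.0194 when no filter on low counts was applied. Between the deletions the 95% interval ran from -0.86 to 0.39, so at this depth neither a further fall nor a rise could be shown.

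*Twist1* (ENSMUSG00000035799, chromosome 12, 33957671 to 33959829), a basic helix-loop-helix factor, was not called in any comparison. It was at 3.91 and 3.87 CPM in the wild-type, 2.73 and 4.05 in the heterozygous, and 3.14 and 2.73 in the homozygous libraries. The 2 heterozygous libraries spanned both wild-type values, and homozygous replicate 2 lay close to the lower heterozygous one. Its log2 fold change was -0.41 for the homozygous (SE 0.185, edgeR adjusted p = 0.126) and -0.19 for the heterozygous cells (SE 0.178, edgeR adjusted p = 0.669).

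**Figure D3:**
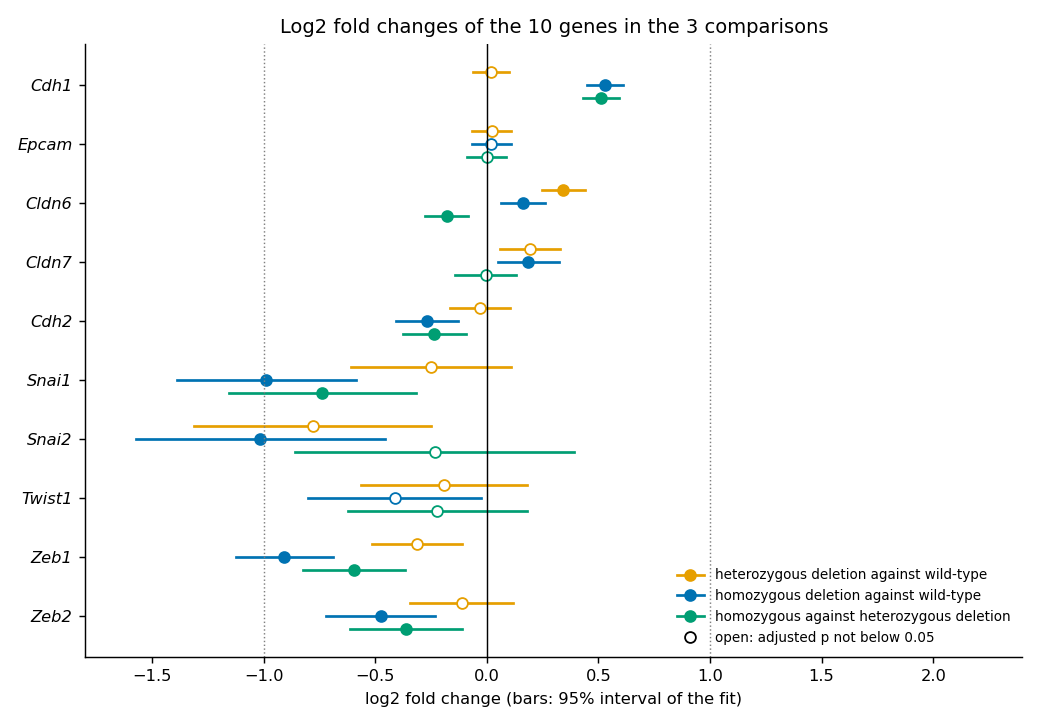
Log2 fold change (horizontal axis) of each of the 10 genes in the heterozygous deletion against wild-type (orange), the homozygous deletion against wild-type (blue) and the homozygous against the heterozygous deletion (green), with 95% intervals of the fit, not adjusted for the number of genes. Filled points had an edgeR adjusted p below 0.05 and dotted lines mark -1 and 1. All 6 mesenchymal genes lie left of 0 in the homozygous deletion, and *Cdh1* stands furthest to the right, at 0.53.

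By groups, 3 of 4 epithelial genes rose and 5 of 6 mesenchymal genes fell in the homozygous deletion against wild-type, where 21.4% of all tested genes were called, 10.9% higher and 10.5% lower. The median log2 fold change was 0.17 for the epithelial and -0.69 for the mesenchymal genes, and -0.01 for all tested genes. All 6 mesenchymal genes were lower in both homozygous than in both wild-type libraries, as were 29.4% of all tested genes, and 3 of 4 epithelial genes were higher, as were 28.4%. With library totals in place of TMM, 1 rose and 5 fell. With 1 deleted allele, 1 of 10 genes was called, *Cldn6*, which rose, where 5.14% of all tested genes were called, 2.23% higher and 2.91% lower. The mesenchymal genes had a median of -0.22 there, and 3 of the 6 lay below wild-type in every library, against 24.0% of all tested genes, while 2 epithelial genes lay above it, against 23.7%. Between the deletions *Cdh1* was higher in the homozygous cells, and *Cldn6*, *Cdh2*, *Snai1*, *Zeb1* and *Zeb2* were lower, where 25.8% of all tested genes were called, 12.9% in each direction. The libraries of the deletions did not overlap for these 6 genes, as for 28.6% of all tested genes on the higher and 32.8% on the lower side. The 3 comparisons share libraries and are not independent of each other.

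Among other genes of epithelial junctions, the calls against wild-type were rises. Of 22 genes of tight junctions, desmosomes and polarity complexes, 14 rose in the homozygous and 11 in the heterozygous deletion, and none fell (medians of 0.21 and 0.18). Of all tested genes, 10.9% were called higher in the homozygous and 2.23% in the heterozygous deletion. *Dsp*, the desmosomal plaque protein desmoplakin, went from 62.9 and 60.8 CPM in wild-type over 96.3 and 99.5 in heterozygous to 111 and 112 in homozygous libraries, a rise by 0.66 and 0.85 on the log2 scale (edgeR adjusted p = 3.96e-08 and 1.13e-10). *Perp*, a desmosomal membrane protein, rose by 0.48 and 0.41 (edgeR adjusted p = 2.63e-06 and 2.10e-06), and *Patj*, a polarity scaffold of tight junctions, by 0.34 and 0.52. The desmosomal cadherin *Dsc2* rose by 0.75 in the heterozygous deletion, while in the homozygous deletion its log2 fold change was 0.20 (edgeR adjusted p = 0.124). P-cadherin, *Cdh3*, lies on chromosome 8 as *Cdh1* does and rose with it, by 0.57 in the homozygous deletion (edgeR adjusted p = 1.37e-07). Without the 2 genes of the list on chromosome 8, 12 of 20 rose in the homozygous deletion. Between the deletions 5 of the 22 genes were called higher and 2 lower in the homozygous cells, beside 12.9% of all tested genes in each direction. None of the 22 changes passed a log2 fold change of 1.

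Among 14 regulators and proteases of epithelia, 6 rose in the homozygous and 2 in the heterozygous deletion against wild-type, and none fell. Of all tested genes, 10.9% and 2.23% were called higher there. Between the deletions 1 of the 14 was higher and 3 were lower in the homozygous cells, beside 12.9% of all tested genes in each direction. *St14*, the membrane protease matriptase, rose by 0.38 in the heterozygous and by 0.19 in the homozygous deletion. *Ovol1* and *Elf3*, epithelial transcription factors, rose by 0.62 and 0.22 with both alleles deleted (edgeR adjusted p = 0.0222 and 0.0401). Of 11 tested genes of the catenin and nectin complex, which carries cadherin adhesion, 2 rose and 1 fell in the homozygous deletion, beside 21.4% of all tested genes called, and with library totals 5 were called. *Ctnnb1*, β-catenin, stayed between 609 and 660 CPM in all libraries, at log2 fold changes of 0.02 for the heterozygous and 0.05 for the homozygous cells (edgeR adjusted p = 0.859 and 0.474). *Ctnna1*, the α-catenin that links the complex to actin, rose by 0.24 in the homozygous deletion (edgeR adjusted p = 0.000105), as did *Afdn*, a nectin-binding scaffold, by 0.20. *Nectin3* fell by 0.22 on the log2 scale. With 1 deleted allele *Afdn* rose by 0.19 and *Lima1*, an actin-binding partner of the complex, fell by 0.26.

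Of 24 genes of the mesenchymal state and of TGF-β signaling, a known inducer of it, 16 fell and 1 rose in the homozygous deletion, and 10 fell and 1 rose in the heterozygous deletion (medians of -0.56 and -0.12). Of all tested genes, 10.5% were called lower in the homozygous and 2.91% in the heterozygous deletion. *Vim*, the intermediate filament vimentin, went from 433 and 439 CPM over 323 and 308 to 216 in both homozygous libraries, log2 fold changes of -0.47 and -1.01. *Fn1*, the matrix protein fibronectin, had log2 fold changes of -0.34 and -0.62. The log2 fold changes, heterozygous then homozygous, were -0.71 and -1.29 for the mesenchymal factor *Prrx1*, -0.73 and -1.45 for the growth factor *Tgfb3*, and -0.55 and -1.37 for *Lox*, which cross-links collagen, each with an edgeR adjusted p of at most 0.000242. *Foxc2*, a forkhead factor on chromosome 8 at 1.39 and 1.49 CPM in wild-type, had -1.25 and -1.55 (edgeR adjusted p = 0.0355 and 0.00376). Without the 4 genes of the list on chromosome 8, 14 of 20 fell with both alleles deleted. The gene that rose in the homozygous deletion was *Snai3*, a SNAI family member on chromosome 8, by 0.45 (edgeR adjusted p = 0.000575), and with 1 deleted allele it was *Tgfb2*, by 0.39. Both were named after their values were seen.

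Markers of fibroblasts, the cells of the feeder layer, moved with the mesenchymal genes. Of 21 markers, 18 were tested. With 1 deleted allele 14 fell, beside 2.91% of all tested genes, and with both deleted 18 fell, beside 10.5%. The markers had medians of -0.49 and -1.08. Their summed level was 1533 and 1516 CPM in the wild-type, 1099 and 1052 in the heterozygous, and 737 and 726 in the homozygous libraries, so that the 3 genotypes did not overlap. None of the markers was at 0 in all libraries, and *Dpt* alone had at most 3 counts everywhere. *Thy1*, a fibroblast surface protein, had the largest fall in the homozygous deletion, from 22.7 and 25.04 CPM in wild-type to 9.07 and 8.99 (log2 fold change -1.40, SE 0.0876, edgeR adjusted p = 5.60e-10). The homozygous values of the markers ran from -1.40 to -0.47, a range that holds *Snai2*, *Snai1*, *Zeb1* and *Zeb2* (-0.48), while *Twist1* (-0.41) and *Cdh2* (-0.27) lay above it. With an SE of 0.117 for *Zeb2* and 0.185 for *Twist1*, these values do not place either gene inside or outside the range. The counts do not separate RNA of feeder cells from RNA of mESCs, and in such libraries fewer cells of a type cannot be told apart from less RNA per cell. The part of the fibroblasts in the fall of the mesenchymal genes was not tested.

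Against wild-type, the stem cell markers did not move in parallel with the epithelial genes. Of the 12, 7 fell and none rose in the heterozygous deletion, beside 2.91% of all tested genes called lower. Their median log2 fold change was -0.19, although *Cldn6* rose there. In the homozygous deletion 1 rose and 1 fell, with a median of 0.03, beside 21.4% of all tested genes called. Between the deletions 10 of the 12 were called higher and none lower in the homozygous cells, with a median of 0.19. Of all tested genes, 12.9% were called higher there. Without *Klf2* and *Zfp42*, which lie on chromosome 8, 5 of 10 fell in the heterozygous deletion, and in the homozygous deletion none rose and 1 fell. Between the deletions 8 of these 10 were called higher in the homozygous cells. The summed level of the 12 markers was 3464 and 3534 CPM in the wild-type, 3202 and 3148 in the heterozygous, and 3682 and 3486 in the homozygous libraries. The largest heterozygous changes among them were falls of *Esrrb* by 0.38, *Klf2* by 0.32 and *Zfp42* by 0.31 on the log2 scale, all factors of the naive pluripotent state.

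**Figure D4:**
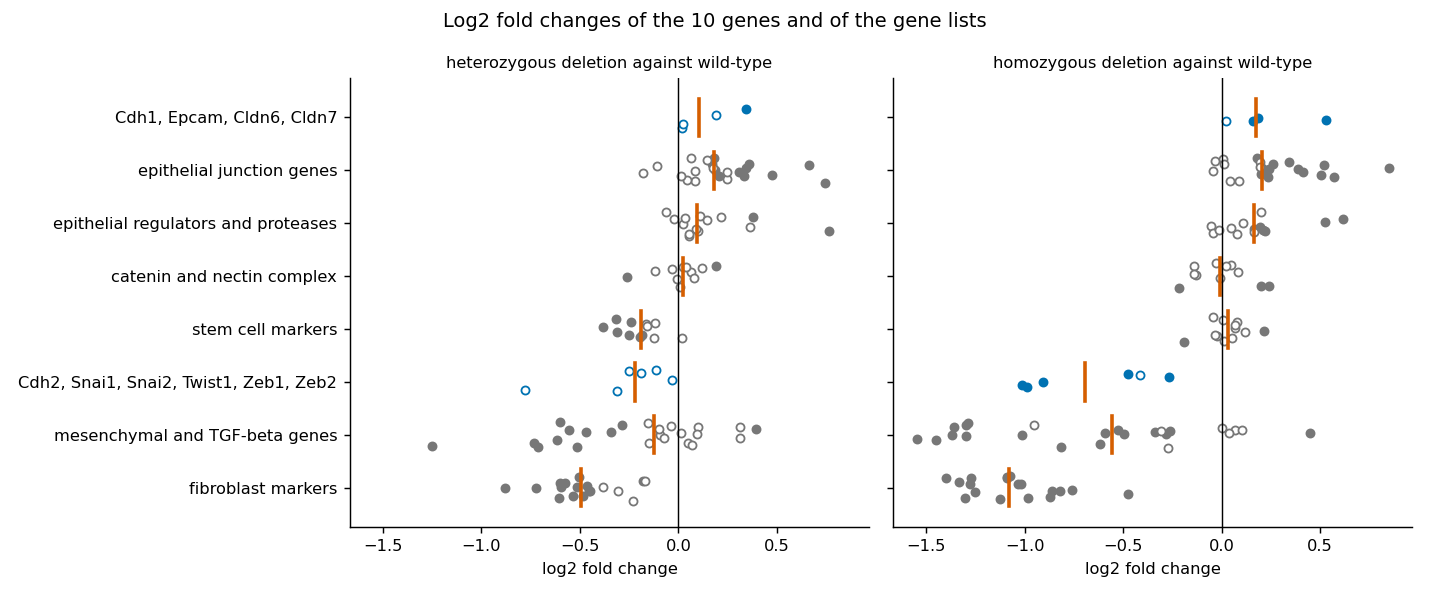
Log2 fold change (horizontal axis) of each tested gene in the heterozygous (left) and homozygous (right) deletion against wild-type, with the 10 genes in blue and the genes of 6 other lists in grey. Filled points had an edgeR adjusted p below 0.05, and orange bars are medians. In the homozygous deletion the medians run from 0.21 for epithelial junction genes down to -0.69 for the 6 mesenchymal genes and -1.08 for fibroblast markers.

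Patterns most like those of the 2 cadherins were sought by Pearson's r of log2 CPM over the 6 libraries, as a description without a test. For *Cdh1* these were *Galnt7* (r = 0.999), *Rsrc1* (r = 0.998) and *Rbm34* (r = 0.998), of which *Galnt7* and *Rbm34* lie on chromosome 8. Of the 50 genes most alike, 18 lie on chromosome 8, which holds 890 of the 16951 tested genes. For *Cdh2* they were *Mustn1* (r = 0.998), *Plau* (r = 0.998) and *Fdxr* (r = 0.997). Of the 50 most alike, 1 lies on its own chromosome, 18, which holds 448 of the tested genes. With 6 libraries in 3 genotypes such values are common, and 647 genes for *Cdh1* and 426 for *Cdh2* had an r above 0.95.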

How the data were processed

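Poly(A) RNA of 6 mESC libraries, 2 per genotype as the sample labels state, was analysed (the methods state triplicates). The values the authors deposited are unnormalized read counts for each gene, from stranded mRNA libraries. The submitters' processing notes name Trimmomatic 0.39, STAR 2.6.1d, SAMtools 1.9, featureCounts 1.6.4 and DESeq2 1.22.2, and the builds mm10 and GRCm38. The strand setting and annotation release are not given in the sources used here. No row lacked a gene name, and 55144 of 55385 identifiers were found in GENCODE M21, from which positions and exon lengths came.

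From the counts, edgeR 4.0.16 in R 4.3.3 fitted 3 genotypes in a quasi-likelihood model with TMM factors, over genes that reached 10 counts in any 2 libraries. SE was taken as the absolute log2 fold change over the square root of F, and p-values were adjusted by Benjamini-Hochberg over all 16951 genes. The fit was tested on simulated counts drawn with the fitted dispersions. These held no difference between clones, no shift of a whole chromosome and no shift in cell types, so the test does not cover such effects. A count of 3 corresponds to between 0.102 and 0.131 CPM, and such floors and all depth limits cover counting error only. Replicates differed by more than sampling noise (chi-square per degree of freedom from 2.34 to 3.65). The 10 genes and the lists (epithelial junctions, epithelial regulators and proteases, catenins and nectins, mesenchymal and TGF-β genes, and markers of fibroblasts, stem cells, primitive endoderm, trophectoderm, primitive streak and neural cells) were chosen with earlier results of these data known. From each list, at most the 3 called genes with the largest absolute change in each deletion are named, plus *Vim*, *Fn1* and *Ctnnb1*, and for *Cdh1* and *Cdh2* the 3 genes most alike in pattern. For the primitive endoderm, trophectoderm, primitive streak and neural lists, genes that did not pass are named too. A named gene of these lists is not reported here. Alternatives were DESeq2 1.42.0, its size factors, library totals, 2 other filters, only the libraries compared, a replicate block, robust estimation, the fold threshold and each library left out. Lists without chromosome 8 genes were added after seeing the data. Figures used matplotlib 3.10.9 in Python 3.11.15.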

Additional observations from a re-analysis of the deposited data

Results flagged for a closer look

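Of the 10 genes, 6 were called when the deletions were tested directly against each other, beside 25.8% of all tested genes. A call here means that the change of the gene against wild-type was not the same in both deletions. The calls of *Cdh1* and *Zeb1* stayed under all 14 alternatives described below, and each of the other calls was lost under some of them. The log2 fold changes of the homozygous against the heterozygous deletion were 0.51 for *Cdh1*, -0.18 for *Cldn6*, -0.24 for *Cdh2*, -0.74 for *Snai1*, -0.60 for *Zeb1* and -0.36 for *Zeb2*, each with an edgeR adjusted p of at most 0.0309. For *Cdh1* the value equals the median of the tested genes of chromosome 8 in this comparison (0.51). The fibroblast markers had a median of -0.60 here, with values from -0.90 to -0.28, and 16 of 18 were lower. *Snai1*, *Zeb1* and *Zeb2* lay within that range, and *Cdh2* lay above it. The SE of *Cdh2* (0.0667) and of *Zeb2* (0.119) do not separate either from the range's upper end of -0.28. The part of the chromosome or of the fibroblasts in these values was not tested. *Cldn6* was raised against wild-type in both deletions and more so in the heterozygous, where the other genes of this group were not called. *Snai2* (-0.23) and *Twist1* (-0.22) did not pass in this comparison (edgeR adjusted p = 0.616 and 0.434), which does not show that the deletions were alike for them.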

How the results depend on the processing

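Of 15 called log2 fold changes of the 10 genes, none changed direction under 14 alternatives each, and 6 stayed called under all of them: *Cldn6* in the heterozygous deletion, *Cdh1*, *Snai1* and *Zeb1* in the homozygous deletion, and *Cdh1* and *Zeb1* between the deletions. Of 210 values of called changes, 25 lost the call. The number of genes called in the heterozygous deletion was 1, or 2 with no filter, 4 with only the libraries compared, 0 with the fold threshold and 1 to 4 with a library left out. In the homozygous deletion it was 8, or 6 with DESeq2 (2 higher, 4 lower), 6 with library totals (1 higher, 5 lower), 1 with the fold threshold and 4 to 8 with a library left out (4 without wild-type replicate 1, 5 without wild-type replicate 2). Between the deletions it was 6, or 3 with DESeq2, 0 with the fold threshold and 2 to 6 with a library left out (2 without heterozygous replicate 1). A lone library was assumed to vary like the other genotypes. The causes were not tested. Libraries sharing a replicate number showed little common variation over genes (correlations of 0.0286, -0.0892 and 0.00844). Such values cannot show whether these libraries shared a culture or a preparation, which the labels do not state. With the replicate block 1, 8 and 6 genes were called, as without it. With the fold threshold no gene of the epithelial junction, epithelial regulator or catenin lists was called (0 in each comparison), the mesenchymal and TGF-β genes gave 1, 8 and 1, and the fibroblast markers 0, 12 and 0, in the order heterozygous, homozygous and between the deletions. DESeq2 called 1 epithelial regulator between the deletions, and library totals gave 5 catenin and nectin genes in the homozygous deletion. Directions changed only for values that were not called, among them *Snai2* and *Twist1* between the deletions and *Twist1* in the heterozygous deletion, which were -0.23, -0.22 and -0.19. With a library left out, the log2 fold change in the heterozygous deletion ran from -0.0093 to 0.044 for *Cdh1*, -0.0044 to 0.048 for *Epcam*, -0.51 to 0.058 for *Twist1* and -0.24 to 0.013 for *Zeb2*. In the homozygous deletion it ran from -0.0067 to 0.055 for *Epcam*, which was -0.037 with library totals. Between the deletions it ran from -0.018 to 0.015 for *Epcam*, -0.096 to 0.087 for *Cldn7*, -0.62 to 0.10 for *Snai2* and -0.47 to 0.10 for *Twist1*. *Epcam* was 0.0115 with DESeq2, 0.0115 with its size factors and 0.0049 with only the libraries compared, and *Cldn7* was 0.0076, 0.0073 and 0.00088. *Cdh1* in the homozygous deletion was 0.14 relative to the median of its chromosome. Counts limit *Snai2*, *Twist1* and *Snai1*, whose SE was 0.172 or more in every comparison.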

Other observations

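Markers of cell types that differentiating stem cells can give rise to were measured as well. Trophectoderm markers summed to 13.3 and 14.6 CPM in the wild-type, 22.1 and 20.9 in the heterozygous, and 21.0 and 18.2 in the homozygous libraries. Of 4 tested, 1 was called higher with 1 deleted allele, beside 2.23% of all tested genes. With both alleles deleted 2 were called higher, beside 10.9%. The simple keratin *Krt7* rose by 0.66 and 0.49 on the log2 scale in the heterozygous and homozygous deletion (edgeR adjusted p = 0.000294 and 0.00155), and the transcription factor *Gata3* by 0.92 in the homozygous deletion (edgeR adjusted p = 0.00114). Neural markers summed to between 82.9 and 97.7 CPM in wild-type and heterozygous libraries and to 135 and 125 CPM in homozygous libraries. Of 4 tested, none was called in the heterozygous deletion and 3 rose in the homozygous, where 10.9% of all tested genes were called higher. *Sox1* and *Tubb3*, which lie on chromosome 8, rose by 1.39 and 0.45 in the homozygous deletion. *Pax6*, which does not lie there, rose by 0.92 (edgeR adjusted p = 4.17e-07). *Olig2* had a value of -0.16 that did not pass (edgeR adjusted p = 0.255). Primitive endoderm markers summed to between 14.8 and 22.3 CPM. Of 4 tested, none was called in the heterozygous deletion and 1 in the homozygous, where 21.4% of all tested genes were called. It was *Dab2*, which fell by 0.48. *Gata4* and *Sox7* had values of 0.26 and 0.25 that did not pass, and the list's median was 0.07. Primitive streak markers summed to between 9.34 and 12.2 CPM. Of 4 tested, none was called in the heterozygous deletion and 1 in the homozygous, again beside 21.4% of all tested genes. It was *T*, which fell by 0.71 (edgeR adjusted p = 0.00651). *Eomes* and *Mixl1* had values of 0.34 and 0.22 that did not pass, and the list's median was 0.08.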
